A study of Mus musculus with 2 samples.

Results

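The 39 protein-coding Hox genes of the mouse, with the 4 clusters in which they lie and 500 kb on each side of every cluster, were examined in DNase-seq data from the urinary bladder. The genes were chosen by symbol, as all protein-coding genes of the GENCODE M21 annotation named Hoxa, Hoxb, Hoxc or Hoxd with a number, 39 of 21951. DNase-seq maps open chromatin through cuts by the nuclease DNase I, which pile up into peaks where the DNA can be reached. The tissue came from male mice of the strain B6CASTF1/J aged 36 days, with no treatment or engineered allele named in the labels. These are F1 hybrids whose reads were placed on the mm10 assembly. There was 1 group with 2 libraries, each from its own animal, called replicate 1 and replicate 2 after the labels, and no second condition, so the values below are descriptions set against the whole genome, with no test. Whole bladder holds urothelium, smooth muscle, stromal fibroblasts and other cells, and a lower peak may reflect fewer open cells or less opening in each cell, which cannot be told apart here.

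Hox genes encode homeodomain transcription factors that give cells their position along the head-to-tail axis. They lie in 4 clusters, and within a cluster the genes are numbered from 1 at the end whose genes act most anteriorly to 13 at the end whose genes act most caudally. Genes with the same number in different clusters form a paralog group, and groups 9 to 13 are known for their part in the caudal trunk, the limbs and the urogenital tract. In cells where a Hox gene is silent, its chromatin is held by Polycomb complexes, and in mouse embryos the clusters are served by distant enhancers in the flanking landscapes, with CTCF sites that part neighbouring domains.

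The low-number end is here the end of a cluster with its lowest-numbered gene, and the flank beyond it is the low-number flank. HoxA holds 11 genes on 105 kb of chromosome 6 (52155590 to 52260880, mm10), HoxB 10 genes on 174 kb of chromosome 11 (96194316 to 96368256), HoxC 9 genes on 116 kb of chromosome 15 (102921103 to 103036852), and HoxD 9 genes on 96.8 kb of chromosome 2 (74668310 to 74765142). The authors deposited a shorter and a longer peak list for each library. On these 4 chromosomes, the lowest listed false discovery rate (FDR) within a peak was at most 0.000998 in the shorter list and 0.0492 in the longer list of replicate 1, and at most 0.000968 and 0.0498 in those of replicate 2. The shorter list was used unless the longer one is named. Overlapping peaks of both libraries were merged into sites, each counted once, and a site found in both libraries is called shared. The clusters and flanks held 236 of 51228 sites, with 162 of 38674 peaks in replicate 1 and 216 of 47661 in replicate 2. They also held 587 of the 140919 footprints of replicate 1 and 756 of the 167442 of replicate 2. A footprint is a short stretch within accessible chromatin that DNase I cut less than its surroundings. The longer lists gave 384 of 87676 sites there.

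The shared site with the highest rank by height inside each cluster, and the lone shared distal site of the HoxD low-number flank, show what accessible Hox chromatin looked like at its sharpest. The sequences are the mm10 plus strand from 5′ to 3′, and capitals mark bases that lay in deposited footprints of both libraries.
HoxA, start of Hoxa7, chr6:52221701-52221980: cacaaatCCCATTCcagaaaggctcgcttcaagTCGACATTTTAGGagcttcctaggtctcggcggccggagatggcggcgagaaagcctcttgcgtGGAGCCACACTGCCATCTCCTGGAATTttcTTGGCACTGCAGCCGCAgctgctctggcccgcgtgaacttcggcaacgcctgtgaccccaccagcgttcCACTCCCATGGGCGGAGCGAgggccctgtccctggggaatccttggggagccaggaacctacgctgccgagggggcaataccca
HoxB, between Hoxb8 and Hoxb9, chr11:96278894-96279042: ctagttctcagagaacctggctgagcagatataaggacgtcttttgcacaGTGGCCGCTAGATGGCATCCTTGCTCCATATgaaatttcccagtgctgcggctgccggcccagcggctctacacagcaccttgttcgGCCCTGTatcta
HoxC, between Hoxc8 and Hoxc9, chr15:102987501-102987700: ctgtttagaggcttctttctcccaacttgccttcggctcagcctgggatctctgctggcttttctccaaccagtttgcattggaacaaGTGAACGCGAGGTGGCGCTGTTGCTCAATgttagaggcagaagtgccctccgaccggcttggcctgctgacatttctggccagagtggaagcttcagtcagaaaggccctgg
HoxD, in an intron of Hoxd3 and Hoxd4, chr2:74715841-74716040: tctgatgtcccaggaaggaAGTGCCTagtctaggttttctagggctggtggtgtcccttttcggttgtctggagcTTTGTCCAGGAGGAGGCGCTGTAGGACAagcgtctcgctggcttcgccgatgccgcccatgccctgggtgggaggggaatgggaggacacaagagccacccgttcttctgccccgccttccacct
HoxD low-number flank, chr2:74964441-74964640: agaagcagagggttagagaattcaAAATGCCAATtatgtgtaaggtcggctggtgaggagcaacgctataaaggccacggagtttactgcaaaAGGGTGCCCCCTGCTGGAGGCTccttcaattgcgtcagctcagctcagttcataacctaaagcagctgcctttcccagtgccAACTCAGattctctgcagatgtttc

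These 5 sites had 84, 38, 29, 35 and 39 bases in footprints of both libraries, in the order printed. They were searched on both strands for the 12-base core of the CTCF motif, called the strict core, and for a looser core with 1 more base unspecified, which was added after the data had been seen. CTCF is the zinc-finger protein that anchors chromatin loops together with cohesin. The HoxD cluster site held the strict core at bases 81 to 92 of the printed run (CCAGGAGGAGGC), and the flank site held it on the other strand at bases 99 to 110 (GCCCCCTGCTGG). The Hoxa7 start held the looser core on the minus strand at bases 109 to 120 (GCCATCTCCTGG), and the HoxB site held it at bases 55 to 66 (CCGCTAGATGGC). In these 4 matches all 12 bases lay in footprints of both libraries. The HoxC site held no match to either form. Its shared footprint bases cover the run ACGCGAGGTGGC at bases 93 to 104, which differs from the looser core at 1 base, a loose criterion that 79.8% of all shared distal sites meet. A match is a description of letters and not evidence of binding.

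Most Hox genes lacked a start peak in at least 1 library. A start peak is a peak that overlaps the 500 bases on either side of any annotated start of the gene. In replicate 1, 11 of the 39 genes (28.2%) had one, against 57.8% of all protein-coding genes. The count in replicate 2 was 17 (43.6%), against 58.5%. In both libraries together it was 10 (25.6%), against 56.2%. With the longer lists, the count in both libraries was 18 (46.2%), against 61.3%. The comparison was repeated among CpG-rich starts, a kind of start that is open in most cell types. They were defined after the data had been seen, as starts with a GC content of at least 50% and an observed-to-expected CpG ratio of at least 0.6 within 500 bases, and 24 of the 39 Hox genes had one. Of those 24, 8 (33.3%) had a start peak in both libraries, against 89.6% of the 9742 protein-coding genes with such a start. Counted in 1 library at a time, 8 (33.3%) of them had one in replicate 1, against 91.2% of all protein-coding genes with such a start. In replicate 2 it was 14 (58.3%), against 91.0%. With the longer lists the share of these 24 in both libraries was 62.5%, against 93.6%.

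The clusters differed in how many members were accessible. HoxA had start peaks in both libraries at 5 of 11 genes, HoxD at 4 of 9, HoxC at 1 of 9 and HoxB at 0 of 10. These are 45.5%, 44.4%, 11.1% and 0%, against 56.2% of all protein-coding genes. The 4 of HoxD include Hoxd3 and Hoxd4, which were covered by the same peak. With the longer lists the counts were 9 for HoxA, 6 for HoxD, 1 for HoxC and 2 for HoxB. CpG-rich starts numbered 9 in HoxA, 7 in HoxD, 5 in HoxC and 3 in HoxB, and their part in these counts was not tested. No list of either library held a start peak for 13 genes: Hoxa2, Hoxb2, Hoxb3, Hoxb8, Hoxb13, Hoxc4, Hoxc6, Hoxc8, Hoxc9, Hoxc12, Hoxd11, Hoxd12 and Hoxd13. Paralog groups 2 and 12 therefore had no start peak in any list, with 2 genes each. Group 13, whose members pattern the most caudal structures, was split: Hoxa13 had a start peak in both libraries, Hoxc13 in the longer list of replicate 2 alone, and Hoxb13 and Hoxd13 in none.

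**Figure D1:**
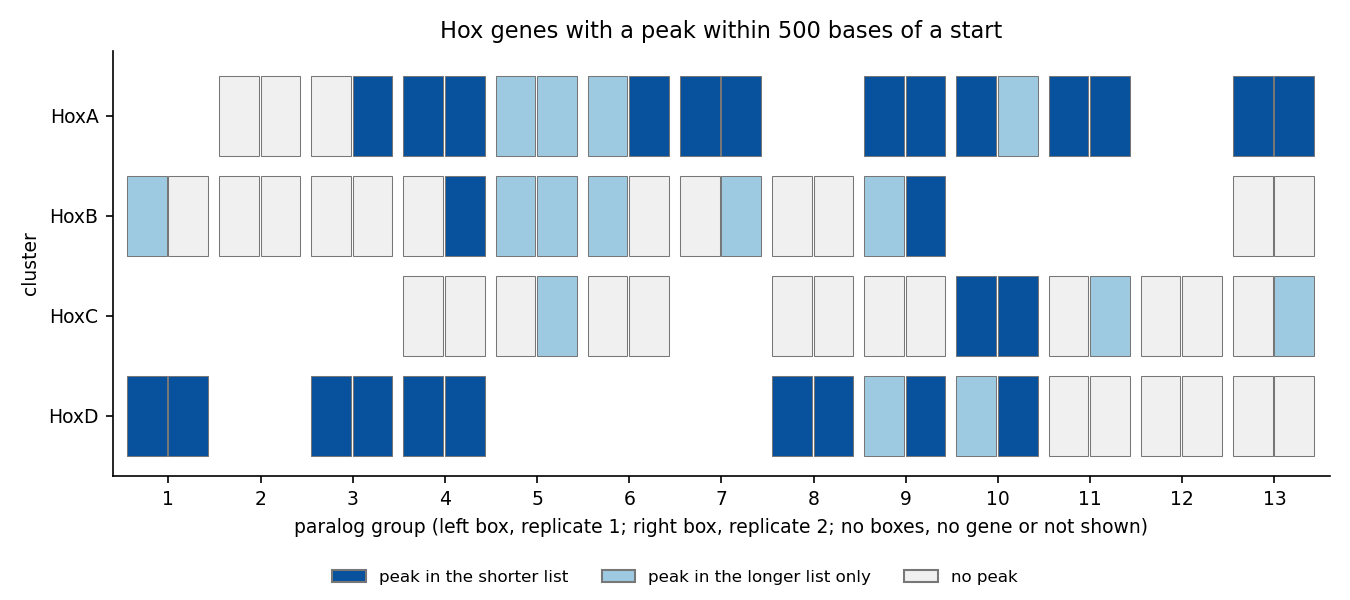
Start peaks of Hox genes by cluster (rows) and paralog group (columns), with replicate 1 in the left box and replicate 2 in the right box of each gene. A dark box marks a start peak in the shorter list of that library, and a light blue box one in its longer list alone. Both boxes are dark for 5 HoxA, 4 HoxD, 1 HoxC and 0 HoxB genes, and no box is filled in groups 2 and 12.

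The anterior and central members with a start peak in both libraries lay in HoxA and HoxD. Heights are the signal that the authors deposited for each peak, and the start percentile ranks the highest start peak of a gene against every other start peak of the same library, with 100 as the top rank. Hoxd1, an anterior gene, had the lowest peak of the 10, with heights of 0.839 in replicate 1 and 0.661 in replicate 2, at start percentiles of 11.1 and 9.98. Hoxd3 and Hoxd4 have starts next to each other and were covered by the same peak, 2.17 high in replicate 1 and 1.86 in replicate 2. They are therefore 2 genes but 1 measurement. Hoxa4, known for a part in the cervical vertebrae, had heights of 2.82 and 2.04, with the peak 108 bases from the gene start in replicate 1 and 128 in replicate 2.

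Hoxa7, a central gene that patterns the thorax, had the highest start peak of the 10 in both libraries. Its heights were 4.63 in replicate 1 and 4.0 in replicate 2, at start percentiles of 90.7 and 84.7, and the peak lay over the gene start itself. Hoxd8, also a central gene, had heights of 2.57 and 2.20. Its start percentiles were 62.0 and 58.7, so both central genes ranked above the middle of all start peaks in both libraries.

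The caudal members in both libraries were Hoxa9, Hoxa11, Hoxa13 and Hoxc10. Hoxa9 owed its call to an internal start: its peak, 3.21 high in replicate 1 and 3.49 in replicate 2, lay 4840 and 4832 bases from the start of the gene record, whose own window held none in the shorter lists. Hoxa11, needed with its paralogs for the kidney and the reproductive tract, had heights of 1.53 and 1.86 in a wide peak of 1260 bases in replicate 1 and 720 bases in replicate 2. Hoxa13, known in the mouse for its part in the limb, hindgut and urogenital sinus, had heights of 1.39 and 1.53. Hoxc10, the lone HoxC member, had heights of 1.70 and 1.48. Of these 4, Hoxa9 ranked highest, at start percentiles of 72.7 and 78.8, and Hoxa13 lowest in replicate 1, at 33.1, while Hoxc10 was lowest in replicate 2, at 42.7.

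Other genes had a start peak in the shorter list of 1 library alone. Hoxa10, which patterns the uterus and the vas deferens, had one in replicate 1, with a height of 3.31. Hoxa3, Hoxa6, Hoxb4, Hoxb9, Hoxd9 and Hoxd10 had one in replicate 2, with heights between 1.10 (Hoxb4) and 2.19 (Hoxa3). Replicate 2 had the longer lists throughout the genome. Its heights came in steps of 0.00893, against 0.0113 in replicate 1, which would make it 1.27 times deeper if 1 step stands for 1 read.

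Absence from the shorter list did not mean a low peak at several Hox starts. Hoxa10 in replicate 2 had a peak of 3.36 in the longer list, against 3.31 in replicate 1, but the lowest listed FDR in it was 0.00188, against 3.53e-55 in replicate 1. In replicate 1, the longer-list peaks of Hoxa5, Hoxb5, Hoxd9 and Hoxd10 were 1.81, 1.86, 1.95 and 1.87 high, all above the median height of 1.46 in the shorter list, with lowest FDRs of 0.00262, 0.00724, 0.00408 and 0.00718. Across the 4 chromosomes, 5790 longer-list peaks of replicate 1 had a lowest FDR above 0.001, and 1.81% of them (105) were at least as high as that median. Inside the Hox clusters it was 13 of 28. In replicate 2 the counts were 4 of 44 inside the clusters, against 1.78% of 7191 on the 4 chromosomes. Height and FDR are thus separate measures, and high peaks with a weak FDR made up a larger share inside the clusters in both libraries.

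In the shorter lists, shared sites inside the clusters were dense in HoxA and at the genome's density in HoxB. HoxA held 49 sites, of which 17 were shared, or 16.1 shared sites per 100 kb, against 1.16 in the genome. Many of these 17 were close neighbours, as described below. A reciprocal overlap of 50% left 11 of them, and the stronger 50% of peaks gave 7. HoxD held 9 sites with 5 shared (5.16 per 100 kb), HoxC 4 sites with 3 shared (2.59 per 100 kb) and HoxB 24 sites with 2 shared (1.15 per 100 kb). Tiles of 100 kb across the genome had a median of 0 and a 90th percentile of 4 shared sites, with 26 as the highest. The share of sites found in both libraries was 31.4% over the 4 clusters, against 61.7% of all sites. It was 34.7% in HoxA, 8.33% in HoxB, 55.6% in HoxD and, with 4 sites, 75% in HoxC. Counted in 1 library at a time, before peaks were merged across libraries, HoxA held 36 sites in replicate 1 and 34 in replicate 2. HoxB held 4 and 22, HoxC 3 and 4, and HoxD 5 and 9. Per 100 kb, merged sites with a peak in replicate 1 and in replicate 2 numbered 32.3 and 30.4 in HoxA and 2.30 and 12.6 in HoxB. They numbered 2.59 and 3.46 in HoxC and 5.16 and 9.29 in HoxD, against 1.35 and 1.69 in the genome. Of the 27 shared cluster sites, 17 overlapped a start window and 10 were distal, which means that they overlapped no start window of any gene. In the genome, 16050 of 31612 shared sites overlapped a start window and 15562 were distal. With the longer lists HoxB held 11 shared sites, or 6.32 per 100 kb, against 1.81 in the genome.

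Along HoxA the shared sites changed in character from the low-number to the high-number side. No shared site of the shorter lists lay in the 36.4 kb from the low-number end to Hoxa4. This span holds Hoxa2 and much of Hoxa3. In the longer lists both libraries had a start peak there, at the antisense transcript Gm15050. In the shorter lists, 5 separate shared sites then followed between Hoxa4 and Hoxa9. The site at the start of Hoxa7 (4.63 and 4.0) and the one at the internal Hoxa9 start (3.21 and 3.49) were the highest by mean percentile, at 93.9 and 87.1 among all peaks. From Hoxa11 to Hoxa13 there followed a row of 12 shared sites between 88.4 and 105 kb, of which the 1 at the uncharacterised transcript 9530018H14Rik stood above the rest, with heights of 2.79 in replicate 1 and 2.64 in replicate 2. The other 11 of that row were up to 1.73 high in replicate 1 and 1.86 in replicate 2. Their widths ran from 224 to 1620 bases, and the widest was merged from 3 peaks of each library. All shared sites of the genome had a median width of 240 bases.

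HoxB had 2 shared sites. The higher, printed above, lay 2.94 kb from the start of Hoxb8 with heights of 2.71 and 2.32, and the other, 36.4 kb from Hoxb9 in the long interval before Hoxb13, had 0.998 and 0.759. HoxC had 3. They were the printed site within an annotated Hoxc5 intron (3.92 and 2.94), the one 186 bases from the start of Hoxc10, and one in an intron of Hoxc13 (1.49 and 1.08). HoxD had 5, and 4 of them lay between 49.2 and 62.7 kb from the low-number end, from an intron shared by Hoxd3 and Hoxd4 to the gap between Hoxd8 and Hoxd9. The highest of these, the printed site, had heights of 3.72 and 3.05, and it overlapped the start window of the antisense transcript Hoxd3os1. Beyond 62.7 kb, where Hoxd9 to Hoxd13 lie, HoxD held no shared site in the shorter lists. In the longer lists Hoxd9 had start peaks of 1.95 in replicate 1 and 2.02 in replicate 2, and Hoxd10 of 1.87 and 1.82.

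**Figure D2:**
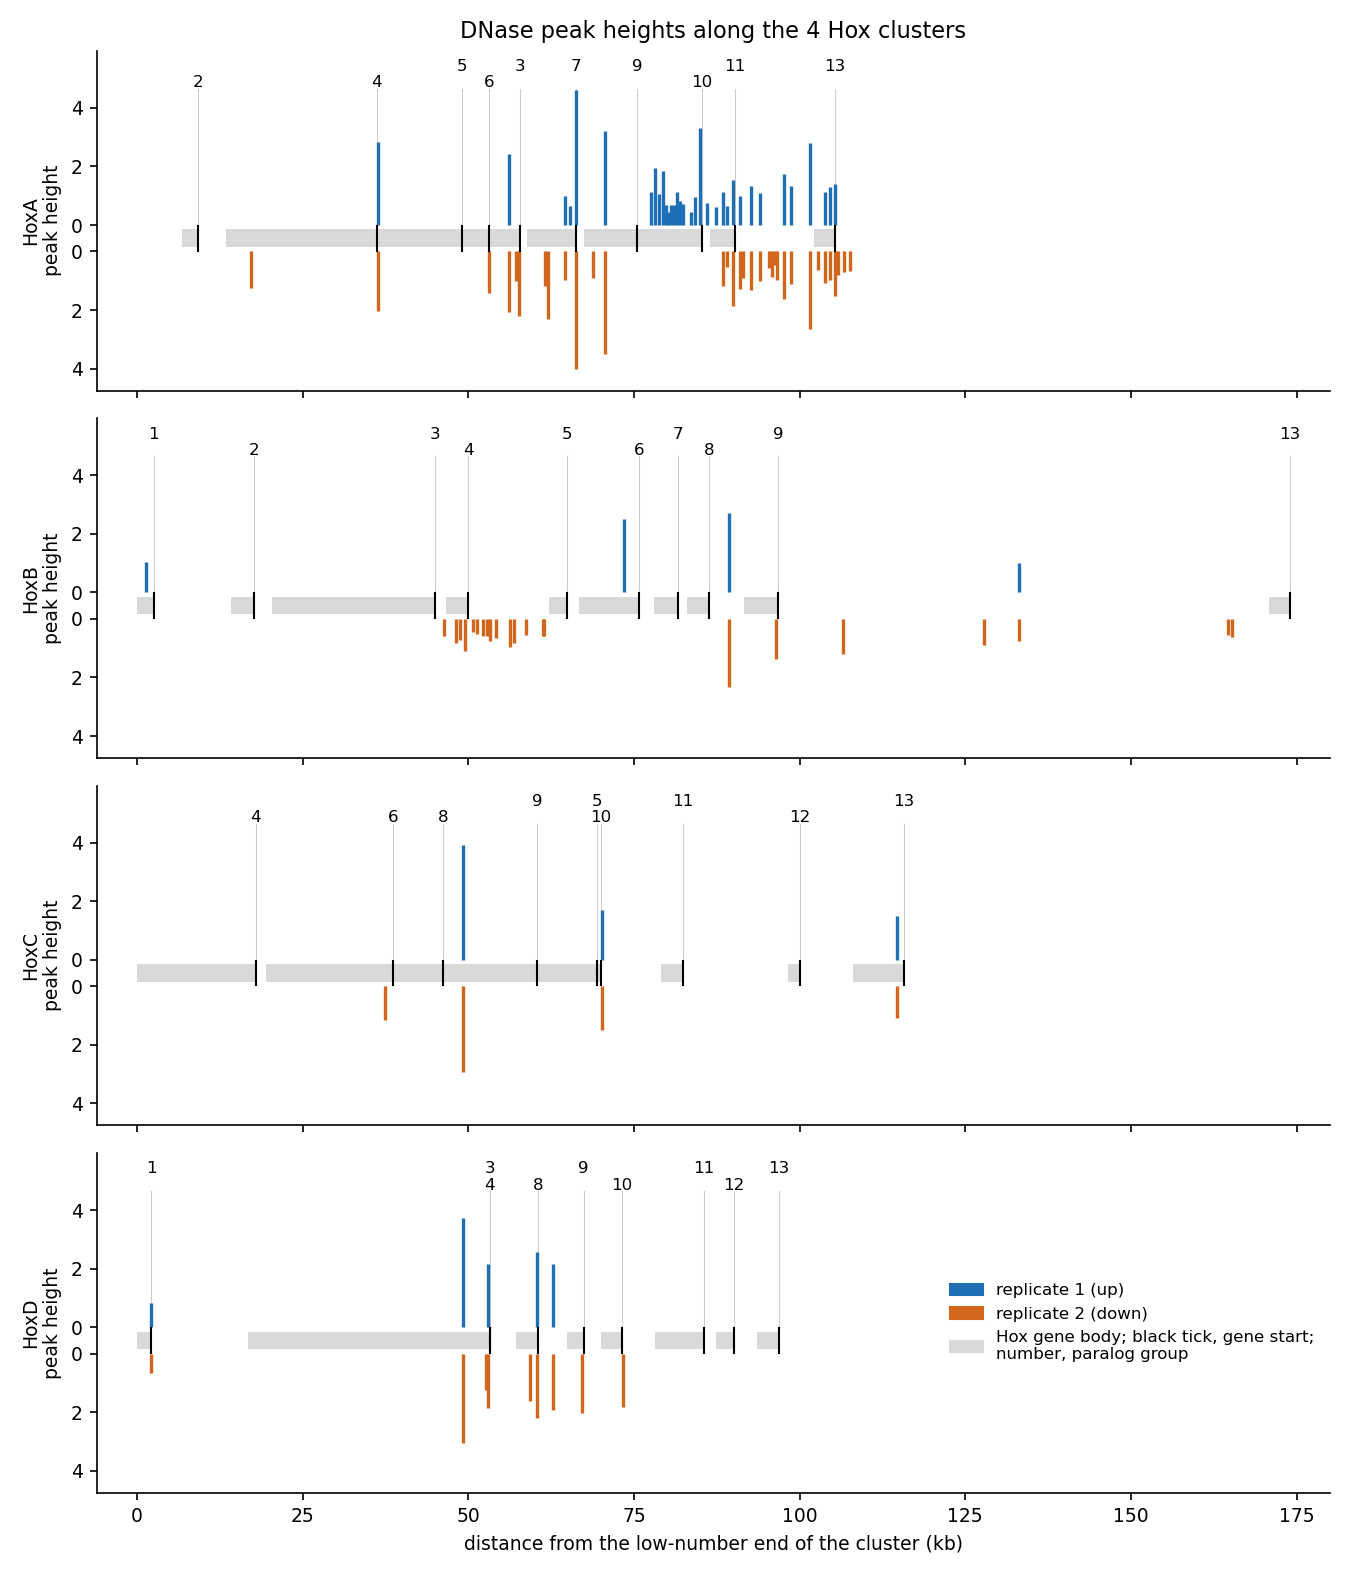
Peak height (deposited signal) of the sites in each cluster against distance from the low-number end in kb, with replicate 1 drawn upward, replicate 2 downward, and gene bodies as grey bars on the middle line; HoxA is drawn from Hoxa2 onward. Tall isolated lines in both directions mark sites such as the Hoxa7 start (4.63 in replicate 1 and 4.0 in replicate 2), while HoxA beyond Hoxa9 and HoxB around Hoxb4 hold rows of low lines that differ between the libraries.

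The rows of low peaks formed long accessible stretches whose extent differed between the 2 animals. A stretch was defined, after the data had been seen, as peaks of 1 library with gaps of at most 1000 bases that together spanned at least 5000 bases. The genome held 15 such stretches in replicate 1 and 18 in replicate 2, and 2 and 3 of them lay in the Hox regions. In replicate 2 the longest of the 18 ran for 10760 bases from Hoxa11 toward Hoxa13 (52243661 to 52254420, 18 peaks with a median height of 0.996). Bases listed with an FDR of at most 0.05 made up 92.3% of it in replicate 2 and 67.8% in replicate 1, so this stretch was accessible in both animals.

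A stretch of replicate 1 within the Hoxa10 gene was different. It spanned 5280 bases (52232881 to 52238160) with 11 peaks between 0.442 and 1.96 high. Bases at the FDR limit made up 99.9% of it in replicate 1, against 0% in replicate 2, neither list of replicate 2 held a peak there, and footprints numbered 30 in replicate 1 and 0 in replicate 2. Next to it, another stretch of replicate 1 ran 7494 bases from the start of Hoxa10 over Hoxa11, with 86.4% of bases at the limit in replicate 1 and 43.1% in replicate 2. Joined in the longer list of replicate 1, the Hoxa10 and Hoxa11 stretches gave 17300 bases, the longest of the 40 stretches of that list.

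The converse was seen at Hoxb4 and Hoxa13. A stretch of replicate 2 over Hoxb4 and the interval toward Hoxb5 spanned 6400 bases (96313861 to 96320260) with 10 peaks between 0.464 and 1.10 high. It had 68.1% of bases at the limit in replicate 2, against 2.08% in replicate 1, and 20 footprints in replicate 2, against 0 in replicate 1. The longer list of replicate 2 extended it to 13670 bases, the longest of its 44 stretches, while replicate 1 had 1 peak there. At Hoxa13 a stretch of 5079 bases had 89.5% of bases at the limit in replicate 2, against 25.2% in replicate 1.

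Binned by 1 kb, 21 of the 106 HoxA bins had at least 50% of their bases at the FDR limit in replicate 1 and 21 in replicate 2, but 11 were the same bins. Of the 21 bins of replicate 1, 6 had no base at the limit in replicate 2. In HoxB the counts were 1 in replicate 1, 10 in replicate 2 and 0 in common, and 8 of the 10 had no base at the limit in replicate 1. Whether the difference lies in the animals, the pieces of tissue or the libraries was not tested, and with 1 library per animal these cannot be told apart.

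**Figure D3:**
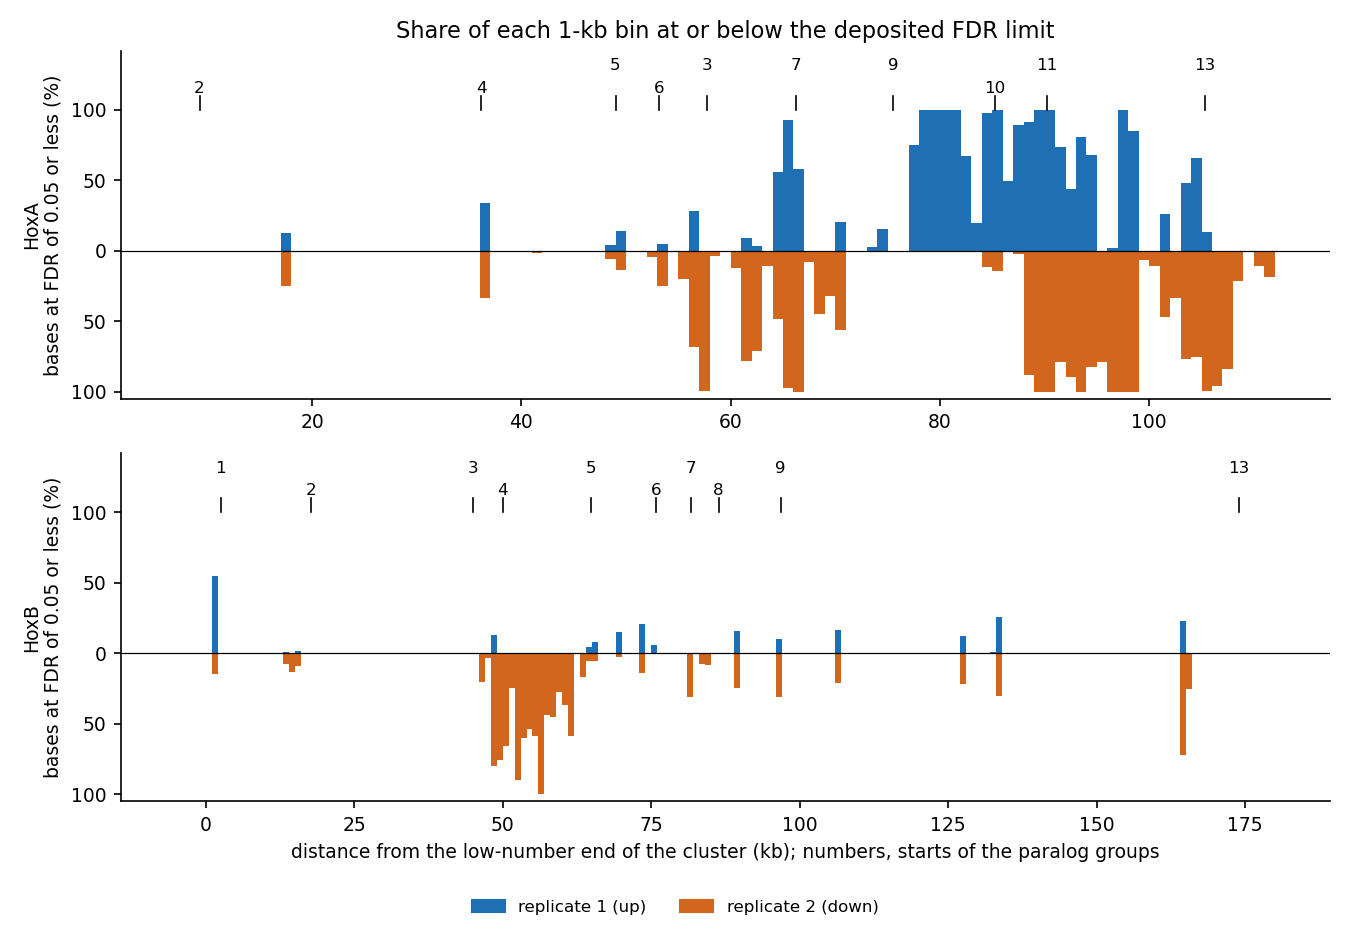
Share of bases with a listed FDR of at most 0.05 in each 1-kb bin along HoxA and HoxB, in percent, with replicate 1 upward and replicate 2 downward, and numbers at the starts of the paralog groups; HoxA is drawn from Hoxa2 onward. The block over the Hoxa10 gene is filled in replicate 1 alone, that between Hoxa11 and Hoxa13 in both, and that around Hoxb4 almost wholly in replicate 2.

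Shared distal sites were most numerous in the flanks of HoxB and HoxC and fewest in those of HoxD. Shared distal sites numbered 12 in the low-number and 10 in the high-number flank of HoxB, 9 and 6 in those of HoxC, 3 and 4 in those of HoxA, and 1 and 2 in those of HoxD. Genome tiles of 500 kb had a median of 2, a mean of 3.04 and a 90th percentile of 8 shared distal sites, so both HoxB flanks and the low-number HoxC flank lay above the 90th percentile, the high-number HoxD flank at the median and the low-number HoxD flank 1 below it. Without replicate 1 the low-number flanks of HoxB, HoxC and HoxD held 22, 15 and 4 distal sites, and the high-number flanks of HoxA and HoxC held 7 and 12. Flanks also differed in genes: those of HoxB and HoxC held 18 and 23 protein-coding genes with a start, those of HoxA 4 and those of HoxD 3. The part of gene number in the number of sites was not tested. Over the 4 clusters, the low-number flanks had 1.25 and the high-number flanks 1.10 shared distal sites per 100 kb, against 0.571 in the genome.

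In the HoxD low-number flank, which in mouse embryos holds enhancers for the proximal limb and other tissues, the lone shared distal site lay 199 kb from the cluster and 139 kb from the start of Mtx2. Its heights were 2.91 in replicate 1 and 2.27 in replicate 2, and its sequence is the last of those printed. The high-number flank, which serves digits and external genitalia in mouse embryos, had 2 low sites, with heights of 0.748 and 0.643 at 368 kb and 0.578 and 0.723 at 258 kb from the cluster. The nearest shared site to HoxD on that side was the start of Lnpk, 89.3 kb away, with heights of 2.58 and 2.99. Evx2, a homeobox gene next to Hoxd13, had no start peak in any list.

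In the HoxA low-number flank the nearest shared site was the start of Skap2, 143 kb away, and the nearest shared distal site was 298 kb away, in an exon of Skap2, with heights of 3.83 and 3.13. The second highest there had 1.15 and 1.22. The high-number flank had shared distal sites from 45.3 kb outward. Its highest by mean percentile, 7.36 kb from the start of the homeobox gene Evx1, had heights of 1.76 in replicate 1 and 1.88 in replicate 2, and the next, in an intron of Hibadh, had 1.19 and 1.5. Evx1 itself had a start peak in replicate 2, 0.839 high, and none in either list of replicate 1.

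The HoxB flanks held shared distal sites from 36.0 kb on the low-number side and 48.5 kb on the high-number side. The highest 2 on the low-number side lay together near Copz2, at the outer edge of the flank, with heights of 3.64 and 3.69 for the first and 2.10 and 1.76 for the other. On the high-number side they lay in introns of Igf2bp1 (2.31 and 1.69) and Zfp652 (1.51 and 1.70). Tall distal sites also stood in the HoxC flanks: on the low-number side 1 near Smug1, 140 kb from the cluster (3.98 and 3.16), and 1 near Gpr84, 270 kb away (3.46 and 3.31). On the high-number side they lay 2.67 kb from Amhr2 (3.14 and 3.60) and 20.6 kb from Calcoco1 (3.22 and 2.58).

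**Figure D4:**
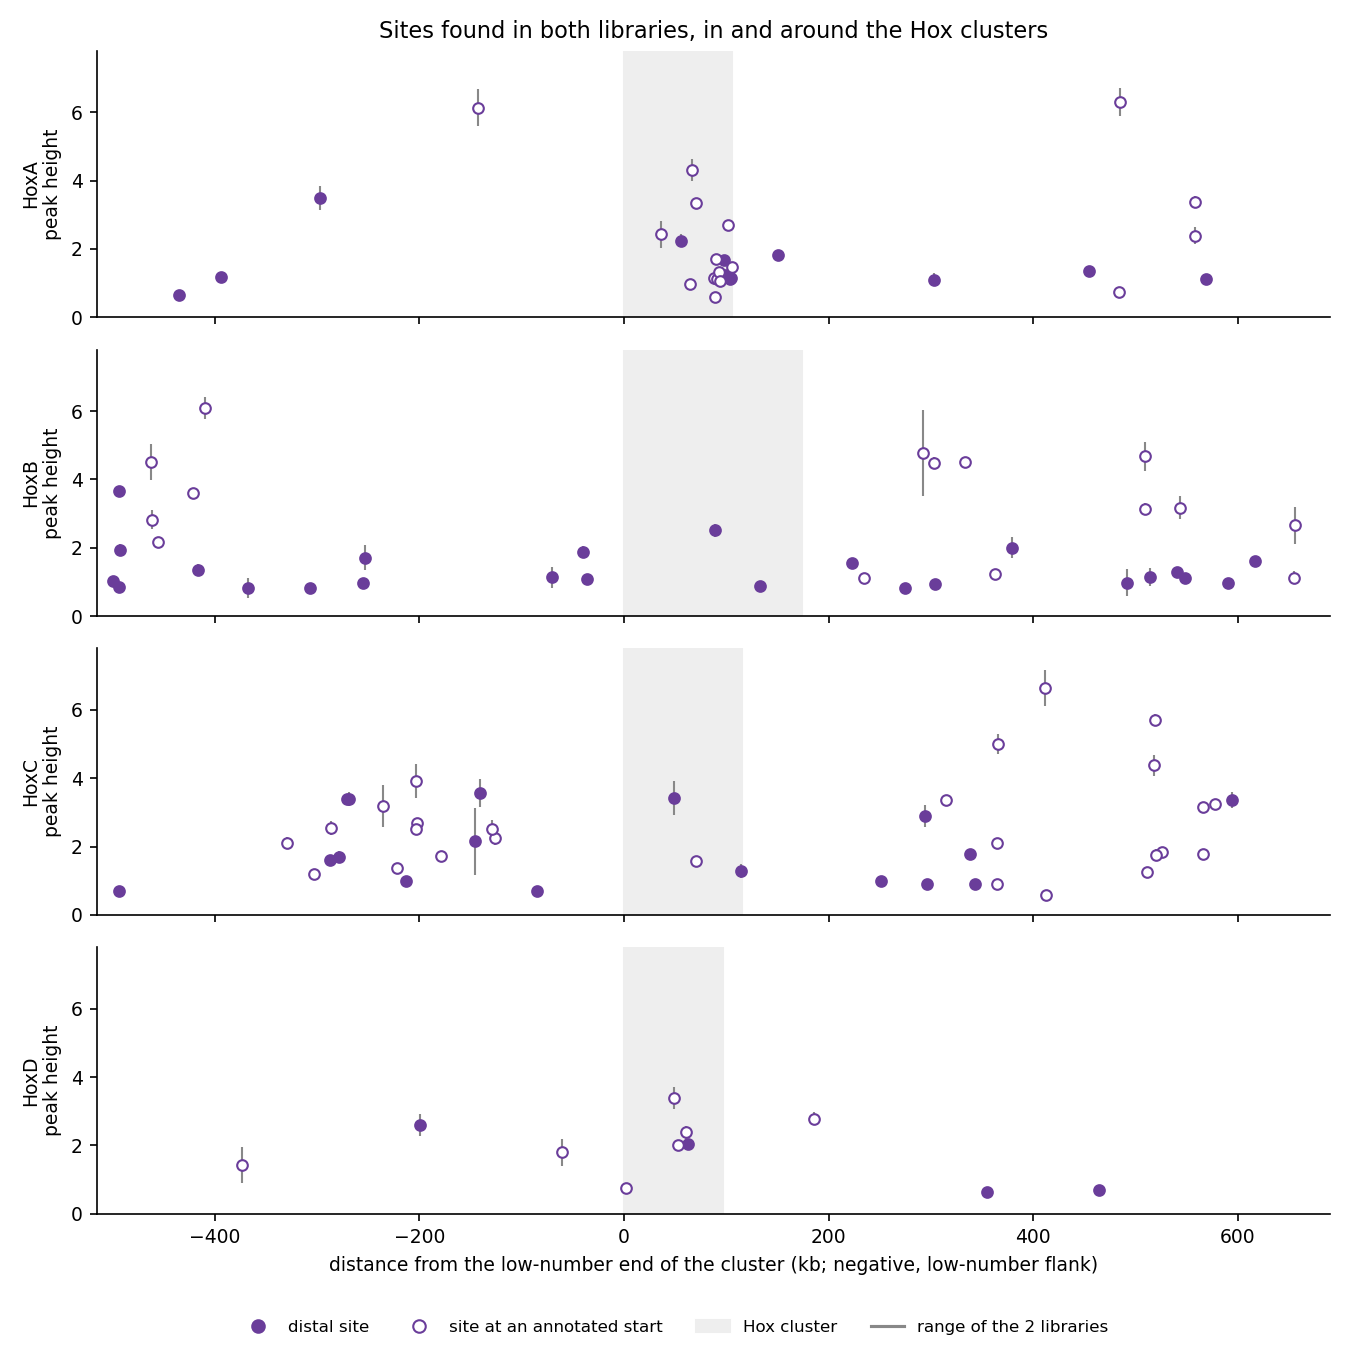
Shared sites in the clusters (grey band) and 500 kb on each side, against distance from the low-number end in kb, with filled points for distal sites, open points for sites at annotated starts, and lines for the range of the 2 libraries in peak height (deposited signal). The HoxD panel holds 1 and 2 distal sites in its flanks, while HoxB holds 12 and 10.

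The limit of 500 kb cut through continuous landscapes at some clusters. The outermost site inside the HoxB low-number flank lay 499 kb out, with heights of 1.15 and 0.893, and the next beyond it at 508 kb, with 0.896 and 0.857. At HoxC these lay 494 and 501.1 kb out. At HoxD the gap was wide, with the outermost site at 373 kb and the next at 820 kb on the low-number side, and at 368 and 601 kb on the high-number side.

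Of the 48 protein-coding genes that start in the flanks, 31 (64.6%) had a start peak in both libraries, against 56.2% of all protein-coding genes. This was 12 of 19 on the low-number sides and 19 of 29 on the high-number sides. Among the highest were Hibadh beside HoxA, with heights of 5.88 and 6.70, Snx11 beside HoxB, with 5.76 and 6.41, and Atf7 beside HoxC, with 6.12 and 7.17 at a start it shares with Gm28047. Snf8 beside HoxB had 4.43 and 4.56, and Hnrnpa1 beside HoxC, at a start it shares with Cbx5, had 3.44 and 4.41. The 2 flank genes of HoxD with a start peak in both libraries were lower, with 2.58 and 2.99 at Lnpk and 2.19 and 1.41 at Mtx2. By comparison, the highest start peak of a Hox gene was the 4.63 of Hoxa7 in replicate 1.

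Sequence matches in the shared distal flank sites were counted in 200-base windows at the site centres, on both strands. The strict CTCF core was found in 14 of 47 (29.8%), against 18.6% of all 15562 shared distal sites, and the looser core in 22 of 47 (46.8%), against 34.3%. Inside the clusters the strict core was in 1 of 27 shared sites (3.70%), against 12.6% of all shared sites, and in 0 of the 10 distal ones. The looser core was in 4 of those 27 (14.8%), against 23.7%. The HOX-PBX composite TGATTNAT, bound by Hox proteins together with PBX partners, was in 2 of the 47 flank sites (4.26%), against 2.20%, and the posterior HOX form TTTATNG in 4 (8.51%), against 5.75%. The MEIS core TGACAG was in 4 of the 47 (8.51%), against 13.9%, and the AP-1 element TGANTCA in 6 (12.8%), against 12.4%. The counts behind these shares are small, and no test was run on them.

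Several noncoding genes within the clusters shared a peak with a coding neighbour. Hoxa11os, transcribed opposite Hoxa11, shared its highest start peak with that gene. Haglr, which has been studied as a regulator of HoxD, shared the low peak of Hoxd1. The printed HoxD site overlapped the start window of Hoxd3os1. Hotair, transcribed from HoxC, had no start peak in any list. The microRNA genes Mir196a-1, Mir196a-2 and Mir10b had none either. Mir10a, which lies beside Hoxb4 in the stretch of replicate 2, had a peak of 0.527 in replicate 2 alone.

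Genes that act with or on the Hox clusters were mostly accessible at their starts. The lists were chosen by name. All 9 TALE homeobox cofactors had a start peak in replicate 1 and replicate 2 alike, with Pknox1 at heights of 4.42 and 4.47 and Pbx3 at 4.60 and 3.96. All 17 Polycomb genes had them too, with Jarid2, a cofactor of the repressive complex that methylates histone H3, at 6.18 and 6.48 and Cbx8 at 5.49 and 5.61. The 6 Trithorax and demethylase genes, which oppose Polycomb, included Kmt2a at 5.60 and 5.74 and Kmt2b at 4.51 and 4.38. The 7 CTCF and cohesin genes included Smc3 at 7.11 and 5.84 and Stag1 at 6.21 and 5.96. None of the 3 Cdx genes, which switch on Hox genes in the early trunk, had a start peak in any list. The genome background for these counts is the same 56.2%, and it is 89.6% among genes with a CpG-rich start. How many of the listed genes have such a start was not counted.

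The tissue label was checked with marker genes. Start peaks in both libraries were found at 4 of 7 urothelial markers, 2 of 5 smooth muscle markers and 2 of 3 fibroblast markers. The share among all protein-coding genes was 56.2%. The urothelial share was thus close to that of all genes, the smooth muscle share below it and the fibroblast share above it. The shorter-list counts alone therefore do not establish the label. The longer lists gave 7, 4 and 3, against 61.3% of all protein-coding genes. The smooth muscle marker Cnn1 had none in any list. Hepatocyte markers and prostate and seminal vesicle markers, 3 of each, had none in any list, and of 3 neuronal markers none had one in a shorter list, while in the longer lists Snap25 had one in replicate 1 and Rbfox3 in replicate 2.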

How the data were processed

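DNase-seq libraries of whole bladder from 2 male B6CASTF1/J mice were used, with replicate numbers from the labels. Per the labels, the authors placed reads on mm10 and made each list per library, without pooling; which aligner and callers were used is not given in the sources used here. Peak height is a signal that the authors deposited for each peak, and no header states its scale. Low heights were whole multiples of a step per library (100% within 0.05 of a step), and absolute depth is unknown, so no interval is given. The deposited FDR values, a kind of adjusted p-value, are listed for bases up to 0.05. Each deposited footprint carries the value 0.01, and whether this is a p-value or an FDR limit is not stated.

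Peaks were set against GRCm38.p6 and GENCODE M21, which share mm10 coordinates, with Python 3.11.15, numpy 2.4.6, pandas 2.3.3, pysam 0.24.0, samtools 1.23.1 and matplotlib 3.10.9. Start windows reached 500 bases on each side of 132666 annotated starts. Sites are merged peaks that overlap by at least 1 base, and the height of a site is its highest peak. Merging, start windows, stretches and positions were tested on simulated data, and 10 of 10 known answers were recovered. Named were the Hox genes with a start peak in both libraries, those with none in any list, the 3 highest shared sites of each cluster, the 2 highest shared distal sites of each flank by mean height percentile, flank genes by the same measure and the 2 highest genes of each regulator list; not every such item is described, and 1 member, which is part of the counts, is not reported here by name. Members, lists and rules were chosen with earlier results of these data known. With 1 group there is no comparison between conditions and no test was run. The reads of both parental genomes of the hybrid were placed on 1 reference, whose effect on these values was not tested. The alternatives tried are given in the closing section.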

Additional observations from a re-analysis of the deposited data

How the results depend on the processing

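Of the 17 planned counts, 6 stayed within 1.5 times of the reported value without replicate 1 and 14 without replicate 2, 9 with the stronger 50% of peaks, and 10 of 12 with a reciprocal overlap of 50%. Start windows of 250 bases and starts of the gene record alone moved none of the 5 gene counts by over 1.5 times, nor did a distal limit of 1000 bases any of the 8 flank counts. A start window of 1000 bases gave 3 HoxC genes in both libraries, against 1. The longer lists gave 18 Hox genes in place of 10, with 9 in HoxA and 2 in HoxB. They gave 27, 11 and 9 shared sites inside HoxA, HoxB and HoxD, and in the low-number flanks of HoxA, HoxB, HoxC and HoxD 5, 20, 16 and 6 shared distal sites, with 11, 16 and 10 in the high-number flanks of HoxA, HoxB and HoxC. The stronger 50% of peaks gave 7 sites inside HoxA and 1 inside HoxB, 1 and 5 in the low-number flanks of HoxA and HoxB, and 1, 3, 3 and 0 in the high-number flanks of HoxA, HoxB, HoxC and HoxD. Reciprocal overlap gave 11 sites inside HoxA and 1 in its low-number flank.

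With 1 library left out, a shared site becomes any site of the remaining one, so counts can only grow by construction. The lowest and highest counts were 11 and 17 for all Hox genes, 6 and 8 for HoxA genes, and 0 and 2 for HoxB genes. For sites inside the clusters they were 34 and 36 in HoxA, 4 and 22 in HoxB, and 5 and 9 in HoxD. In the low-number flanks they were 13 and 22 for HoxB, 9 and 15 for HoxC, and 2 and 4 for HoxD, and in the high-number flanks 5 and 7 for HoxA and 7 and 12 for HoxC. The higher count came without replicate 1, except inside HoxA, where it came without replicate 2.

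Stretches of adjoining peaks depended on how they were defined, by settings chosen after seeing the data. With gaps of up to 500 bases there was 1 stretch in each replicate, against 2 in replicate 1 and 3 in replicate 2, and with gaps of up to 2000 bases, or in the longer list, there was 1 in replicate 1. The fall to 1 in these last cases is a joining of neighbours. No paired analysis was possible because there is 1 group. Absolute depth is unknown, so what it limits cannot be given, and the part of depth in the counts of 1 library was not tested.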
